A study of Mus musculus with 3 samples.

Results

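The 10 genes described here encode the MHC class II molecules of the mouse and the proteins that load them with peptide. They were chosen by symbol (H2-Aa, H2-Ab1, H2-Eb1, H2-Eb2, H2-DMa, H2-DMb1, H2-DMb2, H2-Oa, H2-Ob and Cd74), and all 10 were among the 24346 gene symbols of the tables. RNA sequencing had been done on myeloid cells isolated from colonic tissue of BALB/c mice that were healthy, with no genetic change or treatment named. Each of 3 populations gave 1 library. The first were dendritic cells lacking CD64, the high-affinity Fc gamma receptor of macrophages (CD64- DC), the second macrophages carrying it, and the last Gr-1+ CD11b+ cells, described by the submitters as neutrophil and monocyte and written Gr-1+ cells from here on. The sources used here give no age, sex or number of mice behind a library, and no other marker of the isolation was named. With 1 library a population no difference has a replicate check, no test could be made and no p-value is given. Levels are in FPKM, fragments per kilobase of transcript relative to all mapped fragments of the library, so they can be compared between genes per length. The order of levels for each gene is the order of 3 libraries.

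Class II molecules present peptides from endocytosed material to CD4+ T cells. An alpha and a beta chain (H2-Aa with H2-Ab1, which form I-A, or an E alpha chain with H2-Eb1, which form I-E) assemble with the invariant chain Cd74, which blocks the groove and guides the complex to endosomes. There H2-M, a dimer of H2-DMa with an H2-DMb chain, exchanges the remaining invariant chain fragment for peptide, and H2-O, the dimer of H2-Oa and H2-Ob, inhibits H2-M. Expression of these genes depends on the coactivator CIITA, which acts through proteins bound to the X and Y boxes of class II promoters. Dendritic cells, B cells and many intestinal macrophages carry class II molecules, and H2-O is best known from B cells.

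The promoter letters are shown first because they are the shared feature of these genes that their choice did not use. RefSeq windows of 300 bases (250 before and 50 after the transcript start, GRCm38.p6) were found for 8 of the 10 genes, with 2 windows for H2-DMa. H2-Ab1 and Cd74 had no entry. The letters TGATTGG, which hold an inverted CCAAT and form the core of the Y box, were present in the sense direction in 7 of the 8 genes. Stretches of 67 bases around them are printed 5′ to 3′. Capitals mark TGATTGG and, before it, 3 sets of letters read from X boxes of these genes: AGCAAC (X1-like), ATGATGC (X2-like) and TGACGTCA, a cyclic AMP response element that overlaps the X2 position.
H2-Aa: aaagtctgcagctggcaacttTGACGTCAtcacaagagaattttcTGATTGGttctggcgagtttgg
H2-Eb1: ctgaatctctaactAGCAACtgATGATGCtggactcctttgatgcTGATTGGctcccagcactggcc
H2-Eb2: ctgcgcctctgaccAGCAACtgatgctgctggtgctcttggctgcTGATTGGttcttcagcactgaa
H2-DMb1: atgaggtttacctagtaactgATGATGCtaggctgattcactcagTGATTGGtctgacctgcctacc
H2-DMb2: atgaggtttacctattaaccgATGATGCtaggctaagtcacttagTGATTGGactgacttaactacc
H2-Oa: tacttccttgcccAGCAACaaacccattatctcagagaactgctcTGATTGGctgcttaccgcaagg
H2-Ob: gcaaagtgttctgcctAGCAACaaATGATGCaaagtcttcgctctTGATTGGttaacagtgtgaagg

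These stretches lie at chr17:34287852-34287918 on the minus strand for H2-Aa and on the plus strand for the others. H2-Eb1 is at chr17:34305761-34305827, H2-Eb2 at chr17:34325528-34325594, H2-DMb1 at chr17:34153083-34153149, H2-DMb2 at chr17:34145112-34145178, H2-Oa at chr17:34092289-34092355 and H2-Ob at chr17:34238801-34238867. TGATTGG began between 102 bases (H2-Eb2) and 45 bases (H2-Oa) before the RefSeq start. AGCAAC preceded it in 4 genes by 29 to 32 bases, and ATGATGC in 4 genes by 21 to 24 bases, counted from first letter to first letter. Over all 32851 promoter windows and both strands, 7.82% held TGATTGG, 14.8% AGCAAC, 2.46% ATGATGC and 1.79% TGACGTCA. TGATTGG together with AGCAAC or ATGATGC occurred in 1.49% of all windows. The H2-DMa windows held none of these 4 sets of letters. The sets were picked after the class II windows had been read, so a match is a description of letters only. Genes with an X-like and Y-like pair were found both among those with their highest value in macrophages (H2-DMb1, H2-Eb1) and among those with it in CD64- DC (H2-DMb2, H2-Oa, H2-Ob, H2-Eb2).

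**Figure D1:**
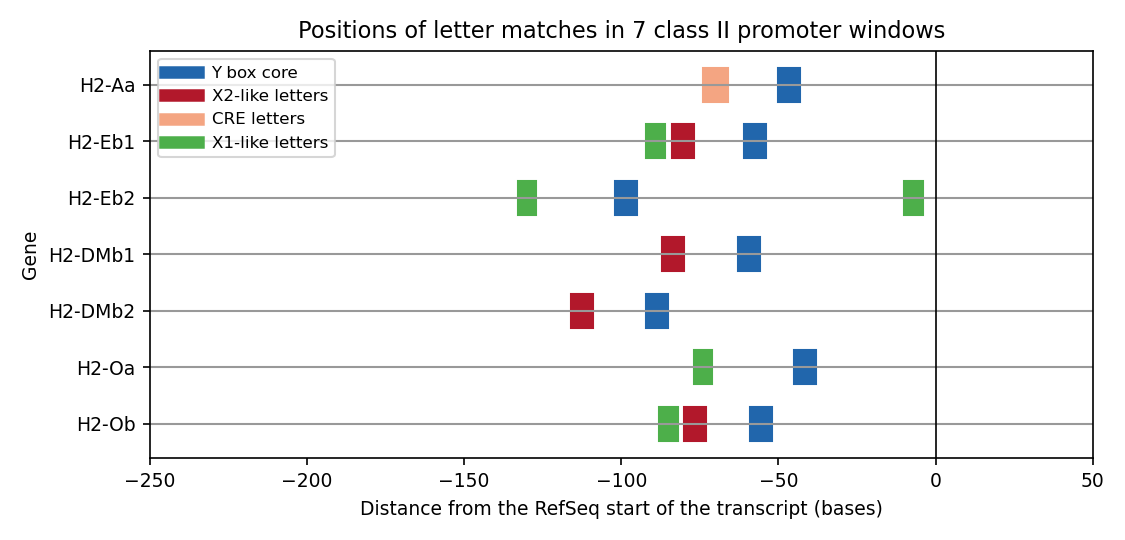
Positions of the letter matches in the promoter windows of 7 class II genes, in bases from the RefSeq transcript start (vertical line at 0), with 1 row a gene and a coloured box for each match. In every row a Y box core lies between 102 and 45 bases before the start, with X-like or CRE letters upstream of it; H2-Eb2 has a further X1-like match near its start.

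The libraries differed in depth, background and makeup, which bears on all values below. Steps in the FPKM of single-transcript genes gave estimated depths of 3.58 in CD64- DC and 2.71 in macrophages with the Gr-1+ library taken as 1. Olfactory and vomeronasal receptor genes, which these cells should not use, had a 95th percentile of 0.611 FPKM in CD64- DC, 3.24 in macrophages and 9.69 in Gr-1+ cells. This is called the silent-gene level, and lower values are not read as expression. Markers are counted as higher where log2(FPKM + 1) differed by at least 2 and the higher library had at least 10 FPKM, the size rule used throughout. Neutrophil markers followed the Gr-1 label, with 13 of 13 higher there than in either other library, and macrophage markers the CD64 label, with 13 of 14 higher than in CD64- DC. Of 17 dendritic cell markers 4 were higher in CD64- DC than in macrophages, among them Flt3 at 39.9 against 5.42 FPKM and Ccr7, which lymphocytes also use, at 1004 against 107. Others had higher values in macrophages: Itgax was at 19.7 FPKM in CD64- DC and 47.0 in macrophages, Batf3 at 20.6 and 42.1, Clec10a at 51.2 and 78.0, and Id2 at 162 and 354. The CD64- DC library also carried all 16 B cell markers examined, between 13.1 and 1489 FPKM. Xcr1 and Clec9a, which mark cross-presenting dendritic cells, were at 2.83 and 2.81. The label dendritic cell thus covers a library with B cell RNA, and results that move with B cell markers are given beside them. In bulk RNA, fewer cells of a type and less RNA per cell cannot be told apart.

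The I-A and I-E chains and the invariant chain were among the most abundant transcripts of the CD64- DC and macrophage libraries, and were several-fold lower in Gr-1+ cells. Cd74 was at 21523 FPKM in CD64- DC, 30833 in macrophages and 3009 in Gr-1+ cells. It ranked 1 among all genes in the first 2 libraries and 35 in the last. H2-Ab1, the I-A beta chain, was at 16331 FPKM in CD64- DC, 29149 in macrophages and 2574 in Gr-1+ cells, and ranked 3 in each of the first 2 libraries. H2-Aa, its alpha chain partner, was at 8296, 14819 and 1183 FPKM. H2-Eb1, the I-E beta chain, was at 3241, 5962 and 494 FPKM. In each of these 4 genes the macrophage library was highest and the Gr-1+ library lowest. The 10 genes together held 7.77% of all FPKM in CD64- DC, 9.54% in macrophages and 0.868% in Gr-1+ cells.

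H2-Eb2, a second E beta gene beside H2-Eb1, behaved differently. It was at 18.2 FPKM in CD64- DC, 1.2 in macrophages and 2.86 in Gr-1+ cells, and only the CD64- DC value exceeded the silent-gene level of its library. The macrophage value rested on an estimated 26.1 fragments (95% exact Poisson interval 0.778 to 1.75 FPKM) and the Gr-1+ value on 23.1 (1.81 to 4.28), intervals that cover counting error only. In CD64- DC H2-Eb1 was thus present at a far higher level per length than H2-Eb2.

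H2-DMa, the alpha chain of H2-M, was at 521 FPKM in CD64- DC, 915 in macrophages and 77.8 in Gr-1+ cells, the same order as the I-A and I-E chains. H2-DMb1 also followed this order, at 585, 1557 and 129 FPKM. H2-DMb2 did not: it was at 890 FPKM in CD64- DC, 139 in macrophages and 19.3 in Gr-1+ cells. The CD64- DC library was therefore lower than the macrophage library for one H2-M beta gene and higher for the other, although the genes lie next to each other.

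The subunits of the inhibitor H2-O were highest in CD64- DC. H2-Oa was at 271 FPKM in CD64- DC, 41.7 in macrophages and 8.50 in Gr-1+ cells. H2-Ob was at 227, 17.7 and 3.37 FPKM. The values in Gr-1+ cells were below the silent-gene level and rested on an estimated 18.7 fragments for H2-Oa (95% exact Poisson interval 5.21 to 13.5 FPKM) and 21 for H2-Ob (2.09 to 5.16). In all, 10 of the 10 genes exceeded the silent-gene level in CD64- DC, 9 in macrophages and 7 in Gr-1+ cells. These levels were 0.611, 3.24 and 9.69 FPKM in that order, so the counts are not compared between libraries. The share of all genes above them was not counted.

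**Figure D2:**
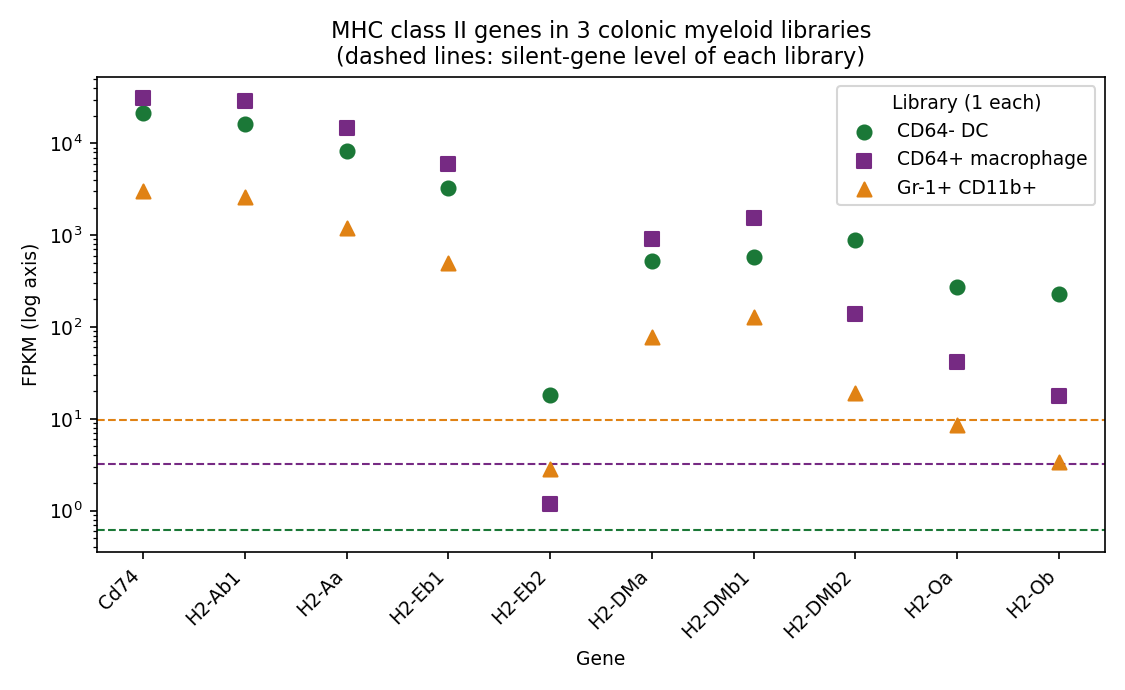
FPKM (log axis) of the 10 class II genes in the 3 libraries, with 1 symbol a library and a dashed line at each library's silent-gene level. Macrophages are highest for 6 genes and CD64- DC for H2-Eb2, H2-DMb2, H2-Oa and H2-Ob; in Gr-1+ cells H2-Eb2, H2-Oa and H2-Ob lie under that library's line.

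CD64- DC and CD64+ macrophages were compared on the log2(FPKM + 1) scale, which understates differences of low genes. A gene was called higher where the difference was at least 2 (about 4-fold) and the higher library had at least 10 FPKM. By this size rule 4 of the 10 genes were higher in CD64- DC, against 1.53% of the 17329 genes compared, and 0 were higher in macrophages, against 2.31%. The 4 were H2-Ob with a difference of 3.61, H2-Eb2 with 3.13, H2-DMb2 with 2.67 and H2-Oa with 2.67. H2-Eb2, at 18.2 FPKM in its highest library, did not pass with a pseudocount of 10 (1.33) or a floor of 30 FPKM, and H2-DMb2 and H2-Oa did not pass with a limit of 3. The other 6 had differences between -1.41 (H2-DMb1) and -0.52 (Cd74), short of the rule, and stayed below 0 under the 3 other scalings tried, with Cd74 at -0.13 when sums were made equal. H2-Aa, H2-Ab1 and H2-DMa were alike at -0.84, -0.84 and -0.81, and H2-Eb1 was at -0.88. The median over the 10 was -0.67 and over all genes compared -0.05, but the 10 fell into 2 separate sets and the median describes neither.

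B cell markers moved with the 4 genes higher in CD64- DC. All 16 passed the rule in that direction against macrophages (median 4.08), and their summed level was 4337 FPKM in CD64- DC, 223 in macrophages and 106 in Gr-1+ cells. None of the 16 was listed at 0 in any library. Cd79a, a signalling chain of the B cell receptor, was at 1489, 59.3 and 35.8 FPKM. Of the 16, 3 exceeded the silent-gene level in Gr-1+ cells and 12 in macrophages. The ratio of CD64- DC to macrophages was 12.8 for H2-Ob, 6.51 for H2-Oa and 6.42 for H2-DMb2, and none is given for H2-Eb2, whose macrophage value is under the silent-gene level. Over the 12 B cell markers above the silent-gene level in macrophages it ran from 6.67 to 33.8, with a median of 25.4. Over the 14 dendritic cell markers above that level it ran from 0.419 to 9.38 (median 2.23). Over 7 plasma cell markers it ran from 0.604 to 20.7 (median 7.91). The dendritic cell markers that passed the rule had ratios of 9.38 (Ccr7), 7.36 (Flt3), 5.23 (Irf4) and 4.83 (Cd24a). H2-Oa and H2-DMb2 thus lay under the B cell range and within the other ranges given. Plasma cell markers were higher by the rule for 6 of 7, including Jchain, and summed to 21231, 1350 and 627 FPKM. Dendritic cell markers were higher for 4 of 17 (Flt3, Ccr7, Irf4 and Cd24a), with a median difference of 1.21, and summed to 1997, 958 and 371 FPKM. Of 13 T cell and innate lymphoid markers 3 were higher, Lck, Cd28 and Il22, and that list summed to 253, 89.3 and 48.4 FPKM, with 0 of 13 above the silent-gene level in Gr-1+ cells. The part of B cells or of dendritic cells in the 4 differences was not tested.

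**Figure D3:**
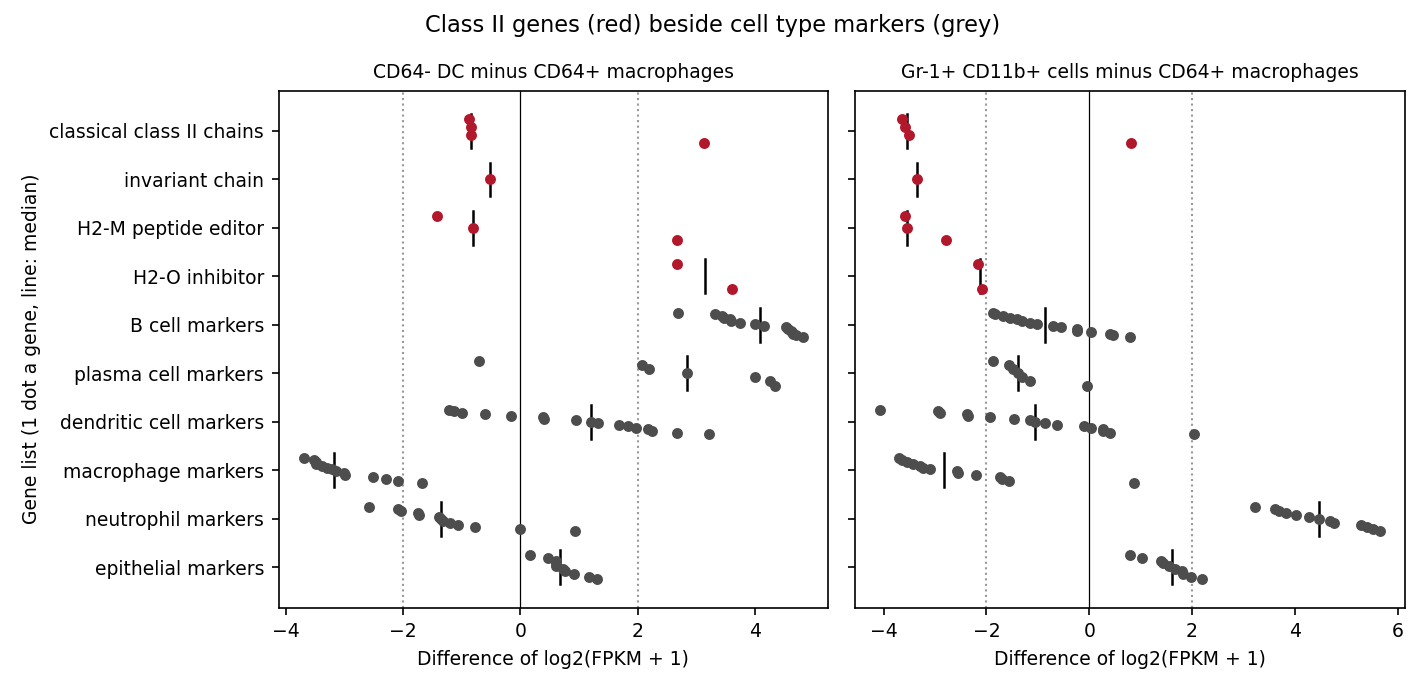
Differences of log2(FPKM + 1) from the macrophage library for class II genes (red) and cell type markers (grey), with CD64- DC on the left and Gr-1+ cells on the right; each dot is a gene, the short line is the list's median and dotted lines mark a difference of 2. On the left the H2-O genes, H2-DMb2 and H2-Eb2 lie between 2.67 and 3.61, under the B cell median of 4.08; on the right the I-A, I-E, Cd74 and H2-M genes lie on the side of the macrophage markers.

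Class II values were lower in Gr-1+ cells than in either other library, except that H2-Eb2 was at 2.86 FPKM there and 1.2 in macrophages. Both of these H2-Eb2 values lay under the silent-gene level. All 10 genes were higher in CD64- DC than in Gr-1+ cells by the size rule, against 6.28% of all genes compared, and 0 were higher in Gr-1+ cells, against 3.65%. The differences (Gr-1+ cells minus CD64- DC) ran from -5.70 for H2-Ob to -2.17 for H2-DMb1, with a median of -2.77 where all genes had 0.01. Of 15 housekeeping genes 3 (Ppia, Eef1a1 and Rplp0) also passed as lower in Gr-1+ cells, and their list's median was -0.94. H2-DMb2 and H2-Oa were at -5.46 and -4.84. The values of H2-Oa, H2-Ob and H2-Eb2 in Gr-1+ cells were under the silent-gene level, so no order is read among them. Subtracting that level set these values to 0, and the differences of -8.09, -7.83 and -4.22 then rested on the CD64- DC values alone. In contrast, H2-Aa, H2-Ab1, H2-Eb1, Cd74 and H2-DMa lay between -2.84 and -2.67. With median-ratio or 75th percentile scaling 5 of the 10 passed, H2-Aa, Cd74, H2-DMb2, H2-Oa and H2-Ob. The median of all genes was then 0.63 and 0.62, and all 10 genes still had lower values in Gr-1+ cells. With the median ratio the background split turned, to 2.04% of all genes higher in CD64- DC and 6.49% higher in Gr-1+ cells.

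Against macrophages, 9 of the 10 genes had lower values past the limit in Gr-1+ cells, against 3.41% of all genes, and 0 were higher, against 1.41%. Of the 15 housekeeping genes 1 (Gusb) was lower there by the rule, with a list median of -0.75. The exception among the 10 was H2-Eb2, which lay below the silent-gene level in both libraries. H2-Aa had a difference of -3.65, H2-Eb1 -3.59, H2-DMb1 -3.58, H2-DMa -3.54, H2-Ab1 -3.50 and Cd74 -3.36. The median of the 10 was -3.43 and that of all genes 0.10. H2-Oa and H2-Ob passed the rule narrowly, at -2.17 and -2.10, and with median-ratio scaling they were at -1.63 and -1.61 and did not pass. With that scaling 1.44% of all genes were higher in macrophages and 3.56% in Gr-1+ cells. The values of H2-Oa and H2-Ob in Gr-1+ cells were under the silent-gene level. Subtracting that level set them to 0, and the differences of -5.30 and -3.95 then rested on the macrophage values alone. These comparisons share libraries with each other, so their counts are not separate evidence.

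Alongside the class II genes, 10 of 14 macrophage markers passed the rule as lower in Gr-1+ cells, with 0 of 14 at 0 in any library. The class II values of Gr-1+ cells were 7.98% (H2-Aa), 8.28% (H2-DMb1), 8.29% (H2-Eb1), 8.51% (H2-DMa), 8.83% (H2-Ab1) and 9.76% (Cd74) of those in macrophages. Genes of the complement component C1q, which mark resident macrophages, were at 7.64% (C1qc), 8.0% (C1qb) and 10.1% (C1qa), and Apoe at 8.58%. The mannose receptor gene Mrc1 was at 3.55 FPKM in Gr-1+ cells, under the silent-gene level, so its share of 8.51% is not read. Fcgr1, the gene of CD64, was at 10.9%. Its Gr-1+ value of 12.3 FPKM lay only a little above the silent-gene level of 9.69. Of the 14 macrophage markers 10 exceeded that level in Gr-1+ cells. Other markers of that list were higher, such as Csf1r at 21.5% and Cd14 at 184%, and the list's median was 13.7%. Summed macrophage markers were 6531 FPKM in CD64- DC, 64828 in macrophages and 18906 in Gr-1+ cells. In CD64- DC the C1q genes were at 8.93% (C1qb) to 10.2% (C1qc) of the macrophage level, whereas H2-Aa and H2-Ab1 were at 56.0% each. The part of macrophages in the class II values of either library was not tested. Epithelial markers, whose cells can also carry class II, were highest in Gr-1+ cells by their sum. They summed to 1442 FPKM there, against 691 in CD64- DC and 420 in macrophages. The part of epithelial cells in the class II values was not tested.

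Ratios between class II genes within a library do not depend on how libraries are scaled. The chains of I-A and I-E kept nearly constant proportions: H2-Aa was 0.508 of H2-Ab1 in CD64- DC, 0.508 in macrophages and 0.460 in Gr-1+ cells, and H2-Eb1 was 0.198, 0.205 and 0.192 of H2-Ab1. Cd74 relative to the sum of H2-Aa, H2-Ab1 and H2-Eb1 was 0.772, 0.618 and 0.708. The H2-M beta genes changed places. H2-DMb2 was 1.52 times H2-DMb1 in CD64- DC, but 0.0890 times in macrophages and 0.150 times in Gr-1+ cells. With the silent-gene level subtracted the last became 0.0806 and that of macrophages 0.0871, so no order is read between these libraries. As a share of both beta genes H2-DMb2 made up 60.3%, 8.17% and 13%. The sum of H2-Oa and H2-Ob, the inhibitor, relative to the sum of the 3 H2-M genes, its target, was 0.250 in CD64- DC, 0.0227 in macrophages and 0.0525 in Gr-1+ cells. The H2-O values of Gr-1+ cells lay below the silent-gene level, so the last ratio is not read. H2-Oa was 1.2 times H2-Ob in CD64- DC and 2.36 times in macrophages. These ratios are RNA per length, not protein.

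**Figure D4:**
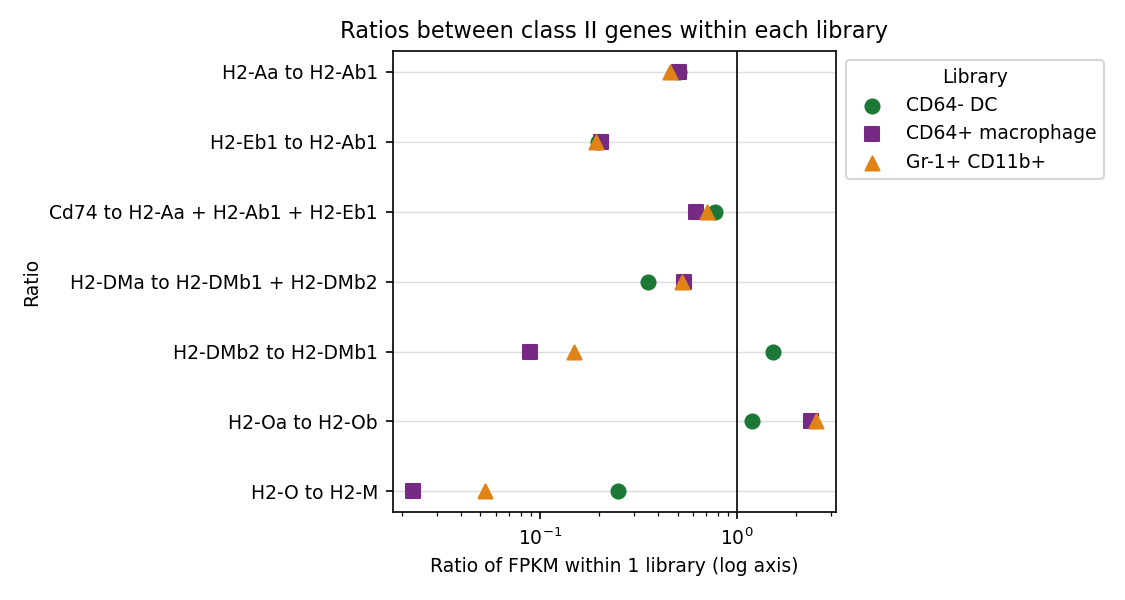
Ratios of FPKM between class II genes within each library (log axis, 1 symbol a library, vertical line at a ratio of 1). The ratios of I-A and I-E chains nearly coincide, whereas H2-DMb2 to H2-DMb1 is 1.52 in CD64- DC and 0.0890 in macrophages, and H2-O to H2-M 0.250 and 0.0227.

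How well fragments can be assigned to H2-DMb1 or H2-DMb2 depends on how far their sequences differ. The coding sequences in GENCODE M21, 783 bases each, were identical at 751 positions (95.9%) and differed at 32. Of all stretches of 50 bases in H2-DMb1, 48.1% occurred unchanged in H2-DMb2, and of those of 100 bases 26.2%. The 60 coding bases with the most differences, positions 208 to 267 of both, are shown because they separate these genes. They lie at chr17:34155585-34155644 for H2-DMb1 and chr17:34147803-34147862 for H2-DMb2, on the plus strand of GRCm38. Capitals mark the 17 bases that differ.
H2-DMb1: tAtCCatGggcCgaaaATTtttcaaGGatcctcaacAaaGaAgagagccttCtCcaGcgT
H2-DMb2: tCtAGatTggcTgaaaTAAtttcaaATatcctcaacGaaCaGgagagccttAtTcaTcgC

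Of the 32 differences in the coding sequence, 17 were in this stretch. Fragments from the identical parts can be split between the genes by the authors' software, so their separate levels are uncertain. Their sum depends less on such a split, as the genes are of similar length (longest coding transcripts of 1404 and 1483 bases). Whether fragments that match both genes were all kept is not known here. The sum was 1475 FPKM in CD64- DC, 1696 in macrophages and 148 in Gr-1+ cells. The sums of CD64- DC and macrophages were thus close, and H2-DMa was 0.353 of the sum in CD64- DC, 0.539 in macrophages and 0.525 in Gr-1+ cells. No other pair compared shared a stretch of 50 bases. H2-Eb1 and H2-Eb2 were identical at 79.0% of aligned coding bases, H2-Ab1 and H2-Eb1 at 73.7%, H2-Ab1 and H2-Ob at 64.2%, and H2-Aa and H2-Oa at 63.3%.

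Of the 10 genes, 9 lie on chromosome 17 between positions 34092340 and 34341412 (GRCm38), an interval of 249 kb. All are annotated as protein-coding, and H2-Aa lies on the minus strand. Cd74 lies on chromosome 18. The 4 genes higher in CD64- DC are not adjacent: they start 0 kb (H2-Oa), 51.0 kb (H2-DMb2), 147 kb (H2-Ob) and 233 kb (H2-Eb2) from the start of H2-Oa. Genes of the other pattern lie between them, such as H2-DMb1 at 60.7 kb. H2-DMa overlaps Brd2 on the opposite strand, and H2-Oa overlaps BC051537 likewise. Without known strandedness such reads cannot be told apart. Neighbouring genes were compared between CD64- DC and macrophages as well. The immunoproteasome genes Psmb8 and Psmb9 had differences of -0.49 and -0.24, the class I peptide transporter genes Tap1 and Tap2 -0.34 and -0.28, and Brd2 0.44. Btnl2, a butyrophilin-like gene, and H2-Ea-ps were at 1.07 and -0.72, with macrophage values under the silent-gene level. Of 7 neighbours examined 0 passed the size rule in any of the 3 comparisons. Btnl2 and H2-Ea-ps could not pass, being under its floor of 10 FPKM in every library. Of all genes compared 1.41% to 6.28% passed in a given direction, so a count of 0 is close to the share of all genes.

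**Figure D5:**
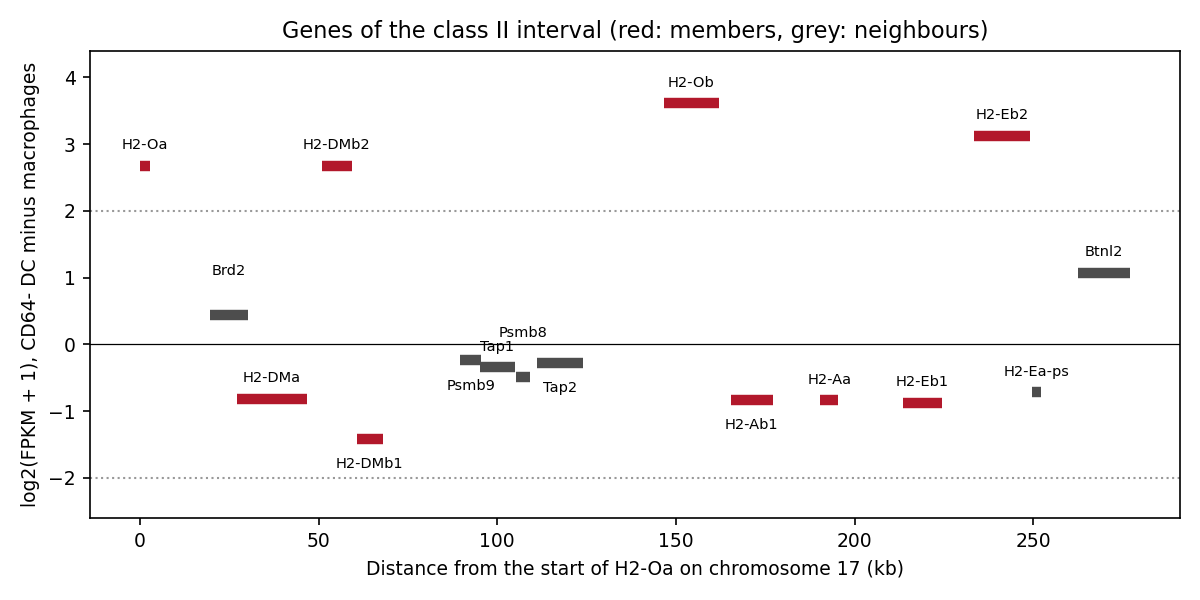
Difference of log2(FPKM + 1), CD64- DC minus macrophages, of class II genes (red) and neighbours (grey), plotted over their distance in kb from the start of H2-Oa; bar length is the gene's length and dotted lines mark a difference of 2. H2-Oa, H2-DMb2, H2-Ob and H2-Eb2 lie above 2 and are separated by genes that lie below 2.

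Among 17 genes of class II transcription, Ciita, the gene of the coactivator CIITA, was highest in CD64- DC. It was at 66.4 FPKM in CD64- DC, 28.8 in macrophages and 3.87 in Gr-1+ cells, the last below the silent-gene level. Macrophages thus had less Ciita than CD64- DC but more H2-Aa, H2-Ab1 and H2-Eb1. The difference in Ciita of 1.18 between CD64- DC and macrophages did not pass the size rule, and that of -3.79 between Gr-1+ cells and CD64- DC did. Rfx5, which encodes an X box binding protein, was at 7.37, 2.89 and 0.892 FPKM, and only the first exceeded the silent-gene level. Its partners Rfxank and Rfxap were at 7.28, 4.39 and 3.67 and at 12, 15.3 and 6.88 FPKM, with both Gr-1+ values under the silent-gene level. Of the 17 genes, 2 were higher in CD64- DC than in macrophages by the rule and 0 lower. They were Spib, at 103 against 4.08 FPKM, and Pax5, at 13.1 against 0.293, both transcription factors of B cells, with Spib also used by plasmacytoid dendritic cells. The macrophage value of Pax5 was under the silent-gene level. Against CD64- DC, 4 of the 17 were lower in Gr-1+ cells (Ciita, Irf8, Spib and Pax5) and 1 was higher (Spi1, at 847 against 203 FPKM). The interferon-gamma receptor genes Ifngr1 and Ifngr2, whose signal can induce CIITA, were at 212, 371 and 230 FPKM and at 71.4, 141 and 84.5.

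Of 16 genes of peptide supply and turnover, 5 were higher in macrophages than in CD64- DC by the rule and 0 lower. They were the cathepsin genes Ctss, Ctsl and Ctsb, Lgmn, which encodes the asparaginyl endopeptidase, and Cd63, a tetraspanin of endosomes. Ctss, whose protease trims the invariant chain, was at 4512 FPKM in macrophages, 1028 in CD64- DC and 497 in Gr-1+ cells. Lgmn was at 685, 132 and 68.6 FPKM in that order. Relative to macrophages, 5 were lower in Gr-1+ cells (Ctss, Lgmn, Ifi30, Cd83 and Lamp1). Ifi30, the reductase that unfolds proteins in lysosomes, was at 329 FPKM in CD64- DC, 585 in macrophages and 65.7 in Gr-1+ cells, the order of H2-Ab1. March1, whose product ubiquitinates class II molecules, was at 9.25, 10.8 and 5.17 FPKM, the last under the silent-gene level. Cd83, whose product stabilises class II at the surface, was at 1173, 1684 and 155.

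The genes nearest in pattern were sought among 6743 with 10 FPKM or more in any library, by Euclidean distance between log2(FPKM + 1) values centred over the 3 libraries. With only 3 libraries many genes can lie close. Nearest to the mean of H2-Aa, H2-Ab1, H2-Eb1 and Cd74 were Cd48, Cd83, Pxdc1, Fgd2 and Ccdc22, at distances of 0.12 to 0.32. Cd48 was at 160 FPKM in CD64- DC, 245 in macrophages and 20.8 in Gr-1+ cells. Nearest to H2-DMa and H2-DMb1 were Cd86, Ly86, Slamf9, Cd4 and Got1 (0.15 to 0.22), with Cd86, a costimulatory ligand gene, at 110, 242 and 22.2 FPKM. Nearest to H2-Oa and H2-Ob were Ccr7, Il4i1, Cd2, Rnase2b and Cd79b (0.15 to 0.42). That set held both Ccr7, a receptor of migratory dendritic cells and of lymphocytes, and Cd79b, a B cell receptor chain, at 562, 41.2 and 10.8 FPKM.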

How the data were processed

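Total RNA was amplified as SMART-Seq HT cDNA and tagged with Nextera, per the labels' protocols. FPKM (fragments per kilobase of transcript, relative to the mapped fragments of the library) were deposited by the authors for each symbol. The submitters' processing notes name mm10, Cufflinks 2.2.1, TopHat2 2.0.13, SAMtools 0.1.19 and Bowtie2 2.2.3 without their roles. The sources used here give no annotation, filter, pooling or strandedness. The annotated reference is of C57BL/6J, per the RefSeq table, whereas the mice were BALB/c, which carry other class II alleles. All 3 libraries share this strain difference, and its effect on mapping was not tested.

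Values were used as deposited. FPKM includes the library total, so a few abundant transcripts lower all others. The 10 most abundant genes held 15.0% of all FPKM in CD64- DC, 22.2% in macrophages and 33.5% in Gr-1+ cells. A pseudocount of 1 preceded log2. The 17329 genes that reached 1 FPKM in a library were compared by the size rule. Depth was estimated from 921, 908 and 1017 low values of single-transcript genes over 800 nt, of which 86.3%, 86.0% and 85.5% lay within 0.2 of a whole fragment where 40% would by chance. On 1 kb of effective length (length less 225 nt), 1 fragment was worth 0.110 FPKM in CD64- DC, 0.145 in macrophages and 0.393 in Gr-1+ cells. There were no molecular identifiers, so fragments are not independent molecules and intervals cover counting error only. Coordinates are from GENCODE M21 (23310 symbols matched), promoters from RefSeq GRCm38.p6.

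The members, gene lists, size rule and silent-gene level were chosen with earlier results of these data known. Named are all members, genes of the fixed lists, and the 5 genes nearest to each of 3 member profiles. That search left out antigen receptor segments and code-only symbols, and BC051537 was named after its position was seen. Python 3.11.15, NumPy 2.4.6, pandas 2.3.3, SciPy 1.17.1 and matplotlib 3.10.9 were used.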

Additional observations from a re-analysis of the deposited data

How the results depend on the processing

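The counts of genes past the size rule were recomputed under 10 settings: pseudocounts of 0.1 and 10, floors of 1 and 30 FPKM, log2 limits of 1 and 3, equal sums, median-ratio and 75th percentile scaling, and subtraction of the silent-gene level. With a limit of 1, 1 gene (H2-DMb1) was higher in macrophages than in CD64- DC, as were 5.69% of all genes. With a limit of 3, 2 were higher in CD64- DC than in macrophages, against 0.681% of all genes. At that limit 3 were higher in CD64- DC than in Gr-1+ cells, against 1.38%. With median-ratio and with 75th percentile scaling the latter count was 5 in each case, against 2.04% and 2.1% of all genes. Of 300 single differences under these settings 265 kept their direction and their side of the rule. Of the others, 33 no longer passed, 1 came to pass and 1, H2-Eb2 between Gr-1+ cells and macrophages, became 0. Of the called differences 0 turned direction, but pseudocounts, floors and limits cannot turn one. Only the scalings and the subtraction could have done so. A lower floor or limit also cannot remove a call. H2-Eb2 did not pass with a pseudocount of 10 (1.33 between CD64- DC and macrophages) or a floor of 30 FPKM, since its highest value is 18.2 FPKM. Subtracting the silent-gene level moved 4 ratios by over 5%. H2-Oa to H2-Ob became 2.66 and H2-O to H2-M 0.0203 in macrophages. In Gr-1+ cells H2-DMb2 to H2-DMb1 became 0.0806 and H2-O to H2-M 0, both H2-O genes being under that level. The share of all genes higher in CD64- DC than in macrophages ran from 0.583% to 5.59%, and higher in macrophages from 0.652% to 5.69%. Higher in CD64- DC than in Gr-1+ cells were 1.38% to 19.5%, and the reverse 1.69% to 10.1%. Higher in macrophages than in Gr-1+ cells were 0.716% to 15.1%, and the reverse 0.577% to 4.72%. The median of all genes lay at 0.20, -0.17 and -0.16 for CD64- DC minus macrophages with equal sums, median ratios and 75th percentiles, at -0.27, 0.63 and 0.62 for Gr-1+ cells minus CD64- DC, and at 0.11, 0.53 and 0.55 for Gr-1+ cells minus macrophages. No paired analysis was possible because each population has 1 library, and leaving out a library leaves out its population. The Gr-1+ library, the shallowest and with the highest silent-gene level, limits H2-Oa, H2-Ob and H2-Eb2 most.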

Other observations

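The E alpha chain, the partner of H2-Eb1 in I-E, is a gene with a defective promoter in the C57BL/6 reference and a working gene in BALB/c mice. The tables list it as H2-Ea-ps, annotated as a polymorphic pseudogene at chromosome 17, 34341959 to 34344645 on the minus strand (GRCm38). It was at 0.387 FPKM in CD64- DC, 1.28 in macrophages and 2.08 in Gr-1+ cells, below the silent-gene level of each library, while H2-Eb1 was at 3241, 5962 and 494 FPKM. The annotation behind the authors' values is not known here and may hold only part of the gene, so these values are not read as absence of E alpha RNA. Btnl2, a butyrophilin-like gene that follows it on the chromosome, was at 3.56, 1.18 and 2.68 FPKM, above the silent-gene level in CD64- DC alone.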
